A study of Schizosaccharomyces pombe with 4 samples.

Results

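The genes ste11, mei2, mei4, byr2, mfr1, mde2, isp3 and rec8 of the fission yeast Schizosaccharomyces pombe regulate or carry out mating, meiosis and spore formation. They were taken as a given list of 8 genes, mostly silent in rich medium. The list was drawn up with earlier results of these arrays known, although its rule uses no measured value. Of the 8 genes, 7 were measured, among 4277 gene windows measured over 5113 annotated coding genes. A gene window was the coding span plus 500 bp on both sides, laid over the probe coordinates with the ASM294v3 annotation. The gene left out was mei2, which encodes an RNA-binding protein that promotes entry into meiosis. It lies at chrI:4511040-4513292, in the part of chromosome I beyond 3.7 Mb, where the array's coordinates matched this assembly in 0 of 19 windows of 100000 bp. Elsewhere 107 of 107 such windows matched.

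The arrays held chromatin immunoprecipitation (ChIP-chip) DNA of Cdk11, a cyclin-dependent kinase that works with cyclin L and that the study's title links to the assembly of Mediator, the coactivator of RNA polymerase II. All samples came from a strain labelled wild-type carrying Cdk11-HA, grown at 32 °C in YES, a rich medium, to mid-log phase. Cells were fixed with 3% formaldehyde for 10 min, chromatin was sheared to about 500 bp, and the tagged kinase was pulled down with the HA antibody HA.11 clone 16B12 and amplified by LM-PCR. The 2 independent immunoprecipitations were each hybridised on 2 Agilent arrays against input DNA. Arrays 1 and 3 held the first and arrays 2 and 4 the second, which left n = 2 once the duplicates were averaged. No untagged strain, starved culture or meiotic culture was analysed here, and no RNA was measured, so the state of these genes in the cells is known only as background.

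Values are log2(Cy3/Cy5), centred on the median probe of each array. The labels give Cy3 to the immunoprecipitated DNA and Cy5 to the input, whereas the deposited ratios ran the other way, as Cy5 over Cy3, with correlations of -0.996 to -0.999 to loess-corrected log2(Cy3/Cy5). The direction of enrichment was therefore not settled, and each difference is given by the channel in which it was higher. Negative values mean more Cy5. Each array carried 42707 genomic probes, with median signals of 5097 to 6341 in Cy3 and 2889 to 4862 in Cy5. Pairs of arrays correlated at only 0.169 to 0.279 over all probes, and duplicates of an immunoprecipitation (0.21 and 0.266) no better than the other pairs. The log ratio fell with spot brightness on every array (correlations of -0.47 to -0.64), so values after a loess correction for brightness are given beside the centred ones.

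In growing cells the entry into meiosis is held back at several steps. Ste11, a transcription factor with an HMG box, is induced by nitrogen starvation and switches on mating genes and mei2 through the TR box in their promoters. Byr2 is the kinase that starts the MAP kinase cascade of pheromone signalling. Mei4, a forkhead factor, later activates genes of the meiotic divisions and of spore formation through the FLEX element. Transcripts such as those of mei4 and rec8 that are made too early are removed by Mmi1, a YTH-family protein that reads repeats of the hexamer UUAAAC. Mmi1 also acts on nam1, a long non-coding RNA transcribed toward byr2 from the same strand, and so keeps its transcription from running into byr2.

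The sequences that bear on these genes are shown from the RefSeq genome (ASM294v3), 5′ to 3′ on the coding strand. The ste11 promoter (chrII:3983126-3983375, plus strand, the 250 bases before the annotated transcript) has its TR box in capitals. The isp3 promoter (chrI:95540-95789, plus strand) has its FLEX cores in capitals. A stretch of nam1 (chrII:1743074-1743223, minus strand) shows its hexamers TTAAAC in capitals.
ste11 promoter: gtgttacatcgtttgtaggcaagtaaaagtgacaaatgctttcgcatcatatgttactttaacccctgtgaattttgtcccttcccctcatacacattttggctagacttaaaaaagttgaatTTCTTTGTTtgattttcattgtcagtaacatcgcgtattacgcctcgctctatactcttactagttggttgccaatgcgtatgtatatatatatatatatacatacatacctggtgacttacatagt
isp3 promoter: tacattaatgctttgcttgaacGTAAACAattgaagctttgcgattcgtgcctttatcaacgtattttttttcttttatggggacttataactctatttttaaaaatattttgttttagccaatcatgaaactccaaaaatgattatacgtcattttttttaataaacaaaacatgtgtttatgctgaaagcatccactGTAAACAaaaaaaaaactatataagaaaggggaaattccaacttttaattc
nam1 stretch: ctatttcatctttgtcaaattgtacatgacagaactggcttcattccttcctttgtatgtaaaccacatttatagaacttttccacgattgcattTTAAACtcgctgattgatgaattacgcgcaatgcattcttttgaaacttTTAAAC
Searched on both strands as TTCTTTGTT, the TR box occurred 1 time before ste11, 2 times before mei2 and 0 times before the other 6 genes, and in 1.62% of 5112 promoters of this length. GTAAACA, the FLEX core, was found before mei4, mfr1 and mde2 (1 match each) and isp3 (2 matches), and in 14.8% of these promoters. On the sense strand TTAAAC occurred 4 times in the mei4 coding span and 3 times in that of rec8. Per length, 1.45% and 5.12% of the 5113 coding genes had at least as many. The 1489 bp of nam1 held 4, starting at positions 358, 916, 965 and 1330 of the transcript, which 0.758% of 1583 non-coding genes of like length reached. A match is a run of letters and was not tested as a site.

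Averaged over the gene window, none of the 7 genes stood apart from the array median: 0 of 7 passed on the Cy5 side and 0 of 7 on the Cy3 side. Over all 4277 windows the same test, limma against 0 with Benjamini-Hochberg adjustment at 0.05, put 7.06% of windows past the threshold in Cy5 and 1.5% in Cy3. Without adjustment 2 of the 7 fell under 0.05 (ste11 and byr2), beside 18.9% of all windows. The median of the 7 windows was 0.22, against -0.01 for all windows, and 0.075 against -0.037 after loess. Under median centring the middle 90% of all windows lay between -0.61 and 0.36. The means of ste11, byr2 and, at -0.08, mei4 lay on the Cy5 side and those of mfr1, rec8, mde2 and isp3 on the Cy3 side, all 7 inside that range.

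**Figure D1:**
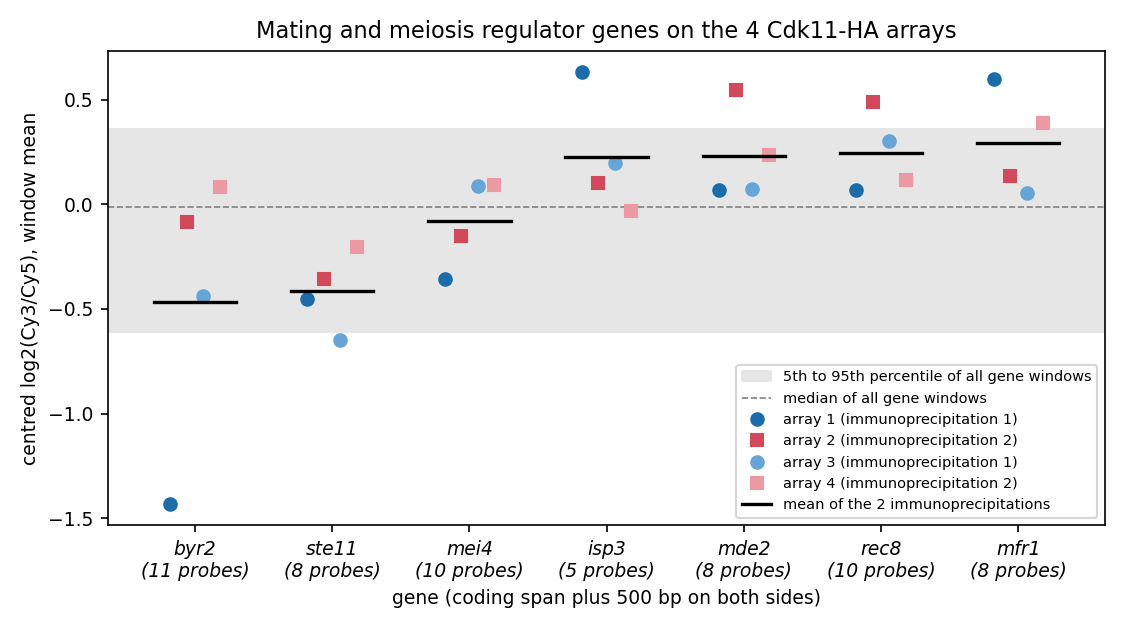
Window mean of centred log2(Cy3/Cy5) for the 7 measured genes on each of the 4 arrays (points), with the mean of the 2 immunoprecipitations (bars) and the 5th to 95th percentile of all gene windows (grey band). All 7 means lie within the band, and the lowest point of all is byr2 on array 1 at -1.43.

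Of the regulators, ste11 (SPBC32C12.02, chrII:3985586-3986992, plus strand) had window values of -0.45, -0.36, -0.65 and -0.20 on arrays 1 to 4. All 4 arrays were on the Cy5 side, and the mean of -0.42 ± 0.19 (SD, n = 2) ranked at percentile 9.48 of all windows. It did not pass the limma test (adjusted p = 0.121). After loess the value was -0.45 and did pass (adjusted p = 0.0224), when 9.45% of all windows passed on the Cy5 side and 2.43% on the Cy3 side. No other member was called after loess.

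The ste11 transcript has a long annotated leader of 2210 bp before its start codon, covered by 9 probes that were dim, at percentile 9.21 of probe brightness on average. Their mean was -0.76, -0.68, -0.18 and -0.13 on arrays 1 to 4, and -0.44 ± 0.05 (SD, n = 2) over the immunoprecipitations, with 0 of 9 probes called. The coding span gave -0.35 ± 0.08 (SD, n = 2), also with no probe called. The non-coding genes SPNCRNA.6380 and SPNCRNA.6381 are annotated over some of the leader probes, and SPNCRNA.6381 also over some in the coding span. After loess the leader read -0.88 with 4 of 9 probes called higher in Cy5, beside 7.69% of all probes. The coding span then read -0.17 with 0 of 5. The loess calls were not confined to the leader. Before it, the probes at positions -2753 and -2389 read -1.02 and -0.95 after loess (limma adjusted p = 0.00963 and 0.0146). The probe at -2389 lies within the ste11 promoter printed above. A further probe at -3058 read 0.15 and was not called. The leader was looked at after values were seen. Array 1 lacked usable spots at several leader probes. Of the 4 leader probes called, the probe centred at position -1333 from the start codon rested on arrays 2 and 3 alone, at -2.12 and -0.22. Another, at position -879, read 0.04 and -0.64 in the 2 immunoprecipitations under median centring. The probe at position -139 from the start codon read -1.71, -0.57, -1.43 and -0.06, so that the first immunoprecipitation was lower than the second. Its mean of -0.94 was not called (adjusted p = 0.239), but after loess it was -1.58 (adjusted p = 7.04e-05). The 500 bp before the start codon differed from the coding span by -0.24 ± 0.94 (SD, n = 2, adjusted p = 0.856) and by -0.98 after loess (adjusted p = 0.0352). With normexp background correction the sign of this difference turned, to 0.14. The nearest coding spans, cyc3 (a cytochrome c heme lyase gene) and ppk25 (a protein kinase gene), read -0.28 and -0.15 (adjusted p = 0.552 and 0.827).

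**Figure D2:**
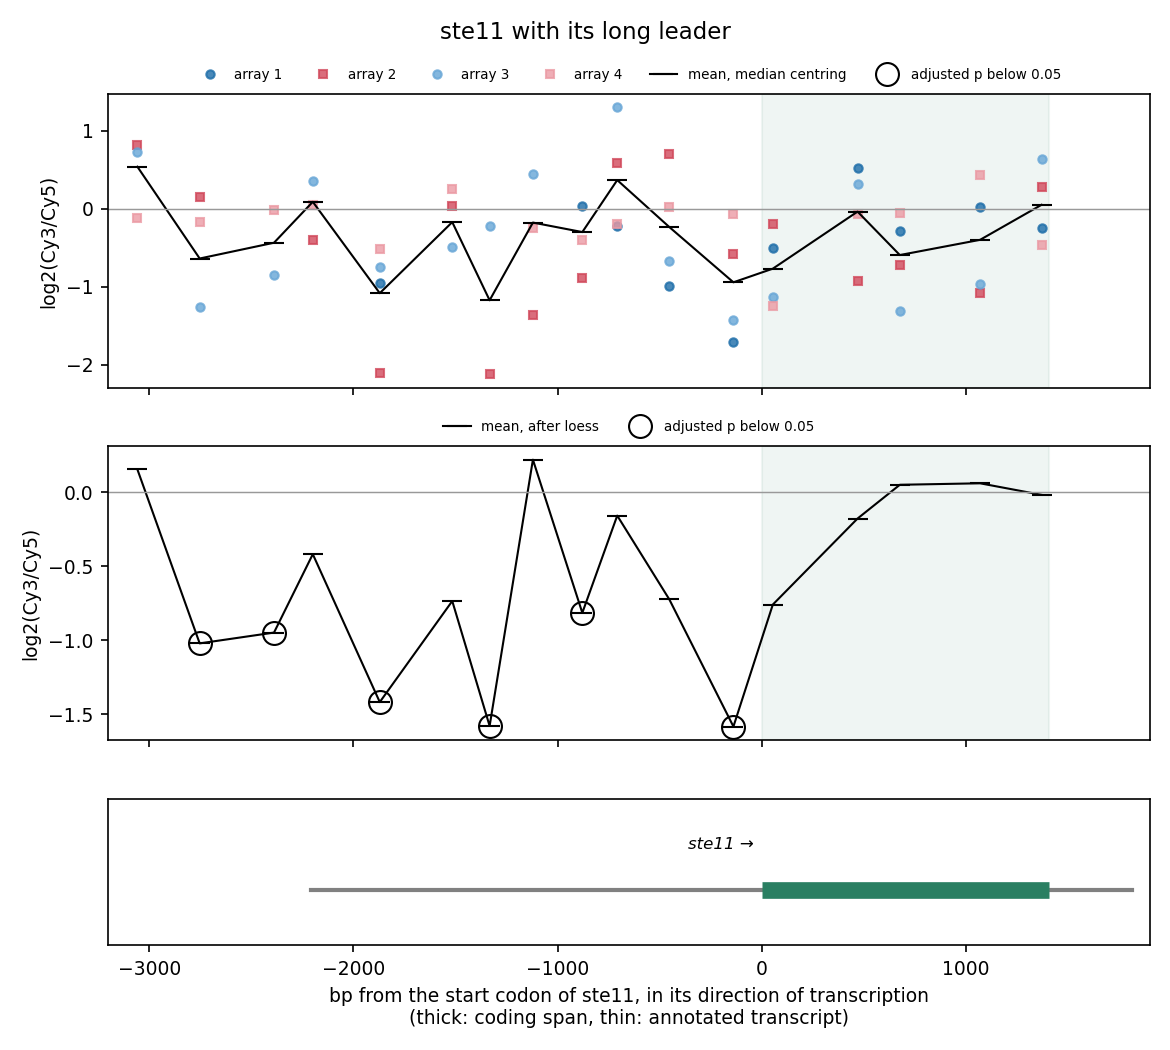
Probes across ste11 by distance in bp from its start codon, with values on each array and their mean under median centring (top), the mean after loess (middle) and the annotated transcript (bottom). Circles mark probes with adjusted p below 0.05. The leader has 0 of 9 under median centring and 4 of 9 after loess, all higher in Cy5, beside 2.31% and 7.69% of all probes. Before the leader, the probes at positions -2753 and -2389 are also called higher in Cy5 after loess.

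The kinase gene byr2 (SPBC1D7.05, chrII:1740317-1742296, minus strand) gave the lowest window mean of the 7 genes. Its window read -1.43 on array 1, -0.08 on array 2, -0.44 on array 3 and 0.08 on array 4. The first immunoprecipitation was low, mostly on array 1, and the second at the array median, which made the mean -0.47 ± 0.66 (SD, n = 2, adjusted p = 0.0684). This limma p-value rests on the spread shared by all windows, and the SD of byr2 itself did not enter it. Without array 1 the mean was -0.22, and after loess -0.15. The window thus showed no difference larger than the spread between immunoprecipitations, but its probes did not lie evenly.

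Under median centring, both called probes of the 7 windows lay upstream of byr2. Of the 59 member probes with a fitted value, out of 60 in the windows, 2 passed on the Cy5 side and 0 on the Cy3 side, beside 2.31% and 0.216% of all 41171 probes. After loess the members had 3 called on each side, beside 7.69% of all probes higher in Cy5 and 4.17% higher in Cy3. The first, chrII:1742512-1742571, is centred at position -246 from the start codon, between the transcript start of byr2 and the 3′ end of nam1. It read -3.03, -2.06, -1.53 and -1.31 on arrays 1 to 4, a mean of -1.98 (adjusted p = 1.48e-04) or 3.94-fold more Cy5. The second, chrII:1742677-1742736, lies inside nam1 and read -3.55, -2.05, -1.10 and -1.68, a mean of -2.09 (adjusted p = 4.13e-05) or 4.27-fold more Cy5. Both probes were on the Cy5 side on 4 of 4 arrays, at ranks 200 and 158 of 41171 from the Cy5 end.

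The run went on for 1 probe beyond the window, further into nam1. That probe, chrII:1743046-1743103, read -2.62, -1.38, -1.71 and -0.60, a mean of -1.58 (adjusted p = 0.00672), and overlaps the 3′ end of the nam1 stretch printed above. Its call was lost without array 1 (adjusted p = 0.0629), array 2 (0.0757) or array 3 (0.0867). After loess the 3 probes kept their direction and their calls, at -1.09, -1.36 and -0.87 (adjusted p = 0.00412, 0.000333 and 0.0253). These 3 were chosen from their values, and the probes beyond the window were looked at for that reason.

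No probe next to this run was called on either side. The next probe up in nam1, at position -1003 from the byr2 start codon, read 0.85, 0.51, 0.75 and 0.15, with all 4 arrays on the Cy3 side and a mean of 0.57 (adjusted p = 0.579). The remaining 2 nam1 probes toward its 5′ end had means of -0.67 and -0.70 and were not called. Over its 5 probes nam1 (SPNCRNA.1459, chrII:1742555-1744043, minus strand) averaged -0.89 ± 0.11 (SD, n = 2), percentile 2.16 of 3909 non-coding spans, whose median was 0.03, and after loess -0.39, percentile 10.6. The 7 probes of the byr2 coding span averaged -0.15 ± 0.73 (SD, n = 2), with 0 called. After loess their mean turned to 0.22, with 1 probe called higher in Cy3 (1.02, adjusted p = 0.0074). On arrays 1 to 4 this span read -1.19, 0.40, -0.14 and 0.35, so the immunoprecipitations lay on opposite sides of 0.

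The 500 bp before the byr2 start codon averaged -2.04 ± 0.37 (SD, n = 2), at percentile 0.0604 of 4141 genes. This region held 2 probes, the called ones at positions -246 and -411. Its mean and the difference below therefore restate those probes and are no separate result. Less the coding span, the difference was -2.10, -2.45, -1.18 and -1.84 on arrays 1 to 4, and -1.89 ± 0.36 (SD, n = 2) in the mean. It had the same sign on 4 of 4 arrays but was not called (limma adjusted p = 0.0909). The same fit put 0.0% of 3693 genes past the threshold toward Cy5 and 0.0542% toward Cy3. After loess, with 5.23% of genes called that way, byr2 passed at -1.45 (adjusted p = 0.000668). The gene beyond the 3′ end, mrpl7, encodes a mitochondrial ribosomal protein on the opposite strand, and its coding span read -0.64 (adjusted p = 0.189). Before nam1 lies mlo3, an RNA-binding protein gene, whose coding span read -0.22 (adjusted p = 0.651). Other non-coding genes are annotated here too, SPNCRNA.5332 over the called probe at position -246 and SPNCRNA.5333 over that at -779. ChIP DNA has no strand, so signal over nam1 cannot be assigned to it rather than to these genes or the byr2 promoter side. Sheared fragments of about 500 bp also spread signal to neighbouring probes.

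**Figure D3:**
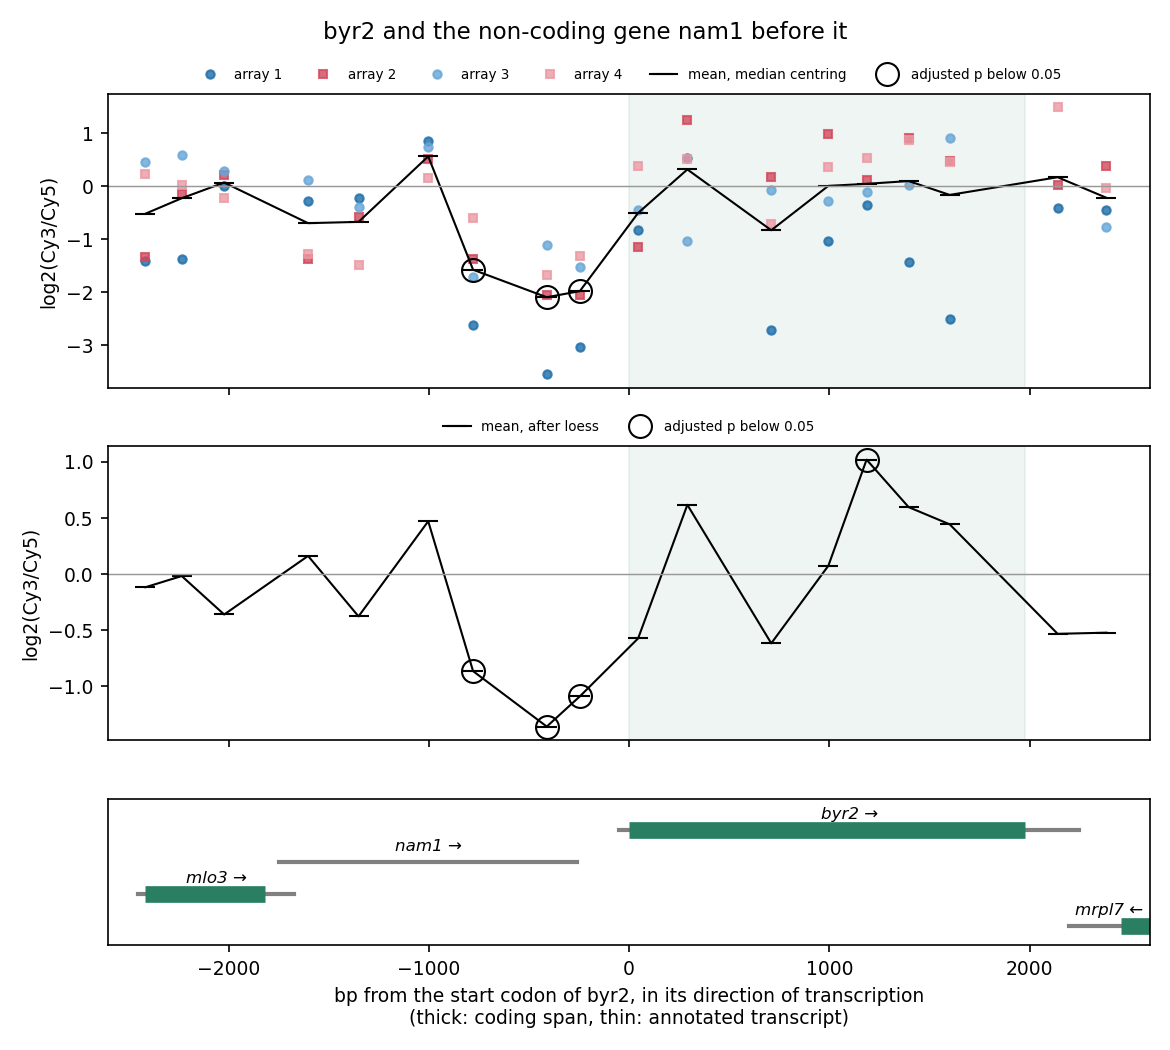
Probes across byr2 and nam1 by distance in bp from the byr2 start codon, with values on each array and their mean under median centring (top), the mean after loess (middle) and the annotated transcripts with their direction (bottom). The 3 circled probes between positions -779 and -246, with means of -1.98, -2.09 and -1.58, were called under both treatments.

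The forkhead gene mei4 (SPBC32H8.11, chrII:1473194-1474747, plus strand) stayed close to the array median. Its window read -0.36, -0.15, 0.09 and 0.09 on arrays 1 to 4, with 2 arrays on each side of 0, and averaged -0.08 ± 0.07 (SD, n = 2, adjusted p = 0.897). After loess it was 0.03, and 0 of its 10 probes were called either way. The coding span averaged -0.25 ± 0.20 (SD, n = 2), and the single upstream probe, which lies over the 3′ end of cdk9, read 0.38, 1.17, 0.50 and 0.76. Upstream less coding was therefore 0.95 ± 0.17 (SD, n = 2), on the Cy3 side on all 4 arrays, but was not called (adjusted p = 0.309) and fell to 0.10 after loess.

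Both neighbours of mei4 are genes that growing cells need. The coding span of cdk9, another transcription kinase gene on the same strand, read 0.06 (adjusted p = 0.943). That of act1, the actin gene, faces mei4 from the opposite strand with 1401 bp between the coding spans. It read -2.05, -1.80, -1.91 and -1.32, a mean of -1.77 ± 0.30 (SD, n = 2, adjusted p = 2.18e-05), and 4 of its 4 probes were called higher in Cy5. The 5 probes between the coding spans averaged -0.49 ± 0.44 (SD, n = 2) with 0 called, and -0.37 after loess with 1 called higher in Cy5. From the mei4 side they read -0.16 and 0.35 inside the mei4 window, then -1.18, -0.88 and -0.60 beyond it. The probe called after loess was the first beyond the window, at position 2138 from the mei4 start codon (-1.19, limma adjusted p = 0.00203). The act1 probes were among the brightest, at percentile 99.2 on average, and after loess act1 read -0.45 with 0 of 4 probes called.

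**Figure D4:**
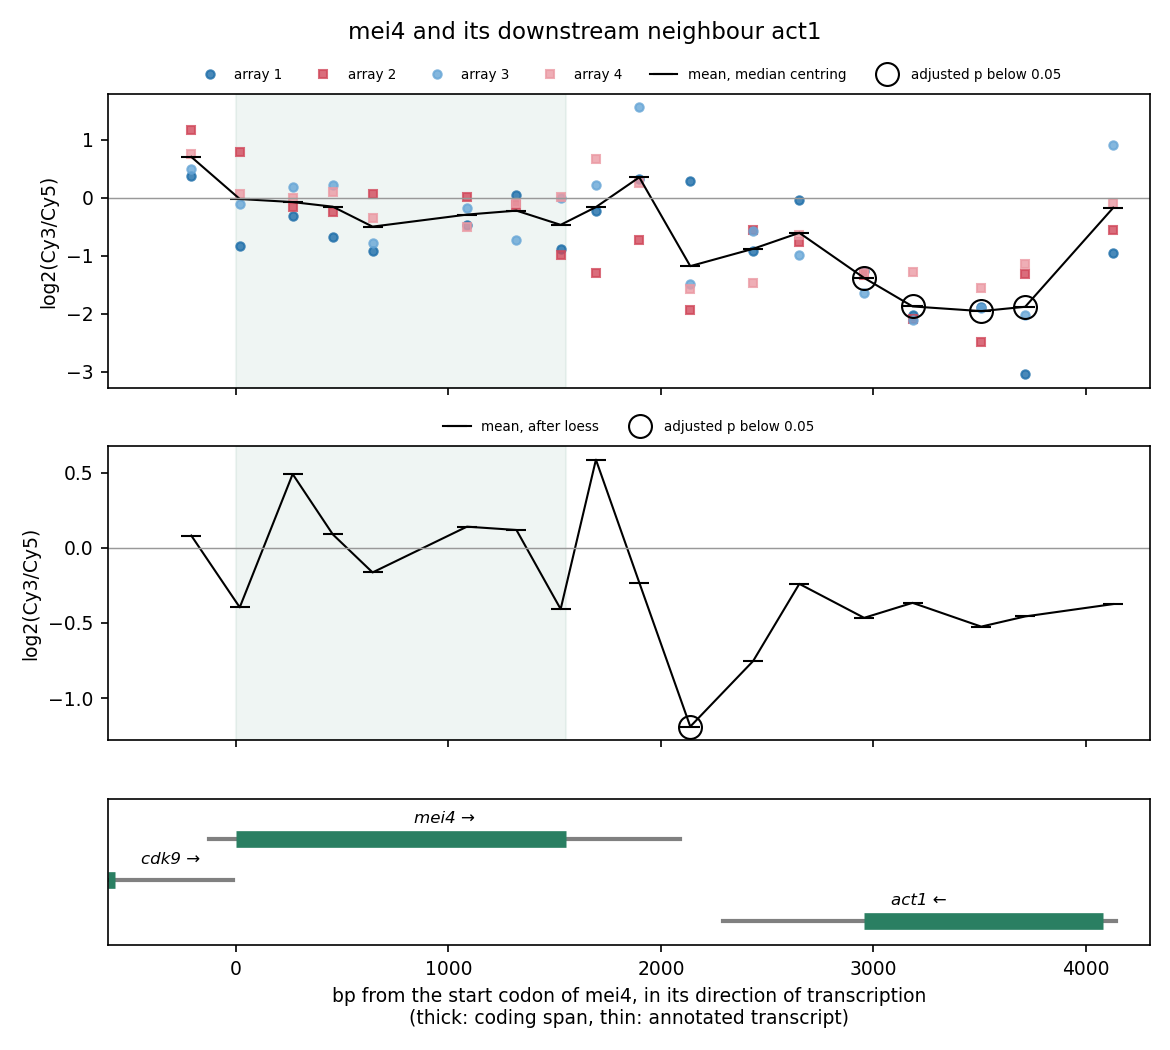
Probes from mei4 to act1 by distance in bp from the mei4 start codon, with values on each array and their mean under median centring (top), the mean after loess (middle) and annotated transcripts with their direction (bottom). The 4 act1 coding probes are circled under median centring at -1.38 to -1.95 but not after loess, and no mei4 probe is circled in either.

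The 4 genes of the later programme all had positive means. mfr1 (SPBC1198.12, chrII:194678-195989, plus strand) encodes a meiosis-specific activator of the anaphase-promoting complex. Its window read 0.60, 0.13, 0.06 and 0.39, on the Cy3 side on all 4 arrays, with a mean of 0.29 ± 0.05 (SD, n = 2, adjusted p = 0.369) and 0.24 after loess. The mean over the coding span was even between arrays, at 0.42, 0.35, 0.38 and 0.38, though means of its single probes ran from -0.10 to 0.67. Its value of 0.38 ranked at percentile 93.5 of 3836 coding spans, below those of mde2 (95.2) and isp3 (98.6). The coding span of tfg2, a TFIIF subunit gene, abuts that of mfr1 from the opposite strand and read -0.33 (adjusted p = 0.452). On the other side reb1, a transcription termination factor gene, read 0.13 (adjusted p = 0.824).

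rec8 (SPBC29A10.14, chrII:2568938-2570810, plus strand) encodes the cohesin subunit that holds sister chromatids together in meiosis. Its window read 0.07, 0.49, 0.30 and 0.12, again all on the Cy3 side, with a mean of 0.24 ± 0.08 (SD, n = 2, adjusted p = 0.492). After loess it was the highest of the 7 genes at 0.31, percentile 96.1, without passing (adjusted p = 0.076). Then 2 of the 10 rec8 probes were called higher in Cy3, beside 4.17% of all probes. Under median centring 1 of these, at position 1242, read 1.62 and 0.04 in the 2 immunoprecipitations. The other, at position -156, read 0.58 and 0.22. The window reaches the coding span of the replication origin gene orc1, which read 0.31 (adjusted p = 0.532). The coding span of atp7, an ATP synthase subunit gene before rec8, read 0.19 (adjusted p = 0.719).

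mde2 (SPBC31F10.08, chrII:3764820-3765709, plus strand) is needed for meiotic DNA double-strand breaks. Its window read 0.07, 0.55, 0.07 and 0.24, with a mean of 0.23 ± 0.23 (SD, n = 2, adjusted p = 0.525), which fell to 0.075 after loess. The probe 801 bp into the gene was the highest of all member probes, at 1.35, 0.97, 1.30 and 0.38, but its mean of 1.00 was not called (adjusted p = 0.199) and was 0.63 after loess. Its transcript overlaps that of med10, which encodes a Mediator subunit on the opposite strand, and the coding span of med10 read 0.04 (adjusted p = 0.964), with -0.56 and 0.65 in the 2 immunoprecipitations. On the other side lsb5 read -0.65 (adjusted p = 0.0763) and -0.13 after loess.

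isp3 (SPAC1F8.05, chrI:96000-96548, plus strand) encodes a protein of the outer spore coat and had only 5 probes. Its window read 0.63, 0.10, 0.20 and -0.03, and the mean was 0.22 ± 0.27 (SD, n = 2, adjusted p = 0.545) and 0.15 after loess. The probe over the start of its coding span was even between arrays, at 0.79, 0.64, 0.79 and 0.80, with a mean of 0.76 (adjusted p = 0.399), but 0.26 after loess. The coding spans of its neighbours hhy1 and pfl8 read -0.17 and -0.52 (adjusted p = 0.749 and 0.159). The probe over the isp3 start and the one in mde2 were the 2 member probes at least 1.5-fold higher in Cy3 in both immunoprecipitations, beside 4.16% of all probes, and 3 member probes were so in Cy5, beside 6.7%. Since mfr1, rec8, mde2 and isp3 did not pass the test, no order among them was resolved.

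Brightness moved with these values over the genome. Across the 4277 windows the correlation of value and brightness was -0.554, and 0.105 after loess, as a description over windows that share arrays. byr2 was bright (percentile 89.4) and ste11 dim (percentile 15.5), so of these lowest windows only that of byr2 was bright. The part that brightness has in the byr2 and act1 values was not tested beyond the loess values given.

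**Figure D5:**
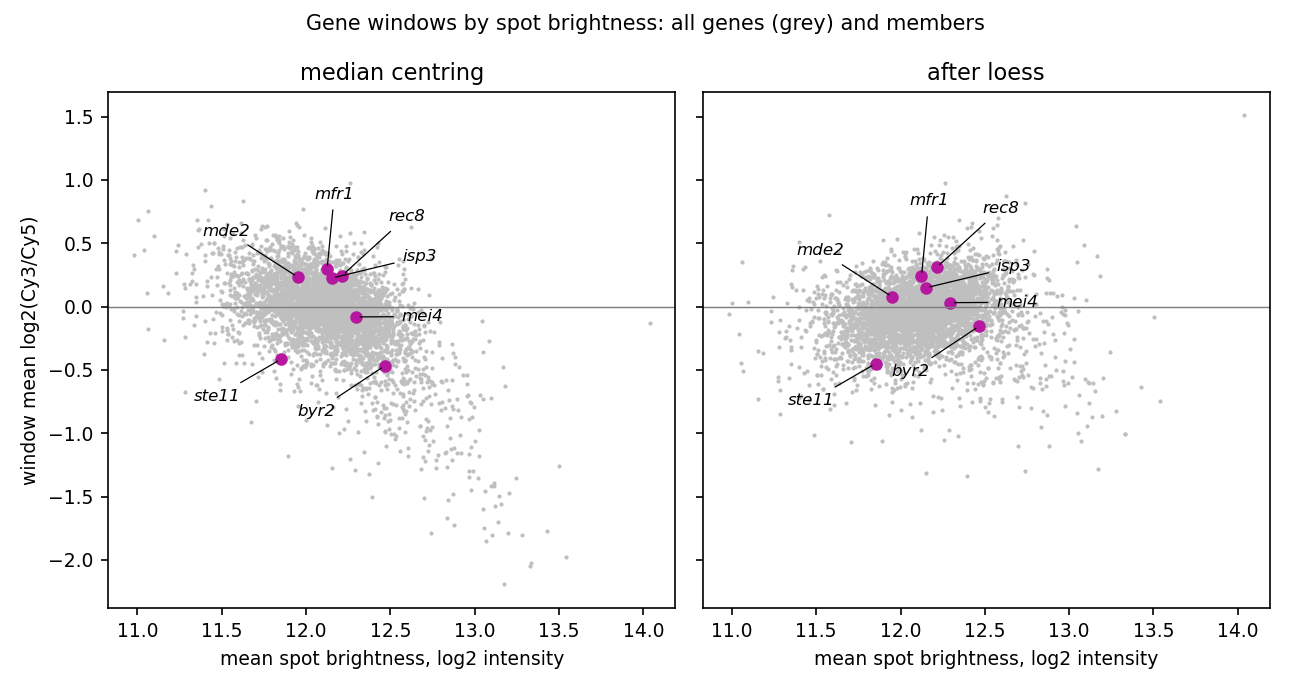
Window mean log2(Cy3/Cy5) against mean log2 spot brightness for all 4277 gene windows (grey) and the 7 genes (coloured), under median centring (left) and after loess (right). The slope in the left panel (correlation -0.554) is nearly gone in the right (0.105), where byr2 moves from -0.47 to -0.15 and ste11 from -0.42 to -0.45.

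The rest of the pathway was read from 5 lists with 89 genes. Their counts stand beside the shares over all windows, 7.06% toward Cy5 and 1.5% toward Cy3, or 9.45% and 2.43% after loess. Of the 20 regulators of ste11 in nitrogen, cAMP, stress and TOR signalling, 19 were measured, with 1 call on the Cy5 side, 0 on the Cy3 side and a list median of -0.06. The called gene was rad24, a 14-3-3 protein that holds back Ste11, at -0.59 ± 0.26 (SD, n = 2, adjusted p = 0.00968). It lost its call after loess (adjusted p = 0.122) and when any 1 array was left out (0.0665 to 0.252). Of 20 genes of pheromone signalling and conjugation, 16 were measured and 0 were called either way, with a median of 0.03. The lowest were map2, the P-factor pheromone gene, at -0.29 and ras1, the GTPase that acts on Byr2, at -0.21, and the highest were ste6 at 0.23 and mfm2, an M-factor gene, at 0.20. After loess map2 was called at -0.50 (adjusted p = 0.0121) and the mfm2 value turned to -0.10. Under median centring the map2 coding span alone, without its flanks, read -0.01 (limma adjusted p = 0.986).

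Among 18 genes of meiotic recombination and the chromosome axis, 14 were measured, with 1 call on the Cy5 side, 0 on the Cy3 side and a median of 0.10. The called gene was rec15, needed for meiotic DNA breaks, at -0.94 ± 0.07 (SD, n = 2, adjusted p = 2.11e-06), and at -0.37 after loess (adjusted p = 0.0423), but its call was lost in the deposited table (0.0776). After loess dmc1, a meiotic recombinase gene, was also called, on the Cy3 side at 0.45 (adjusted p = 0.0179). Among 20 genes of the meiotic divisions, spore formation and the spore wall, 17 were measured, with a median of 0.01. Under median centring none was called higher in Cy5, and spn7, a septin gene of spore formation, was called higher in Cy3 at 0.56 ± 0.30 (SD, n = 2, adjusted p = 0.017). It lost this call without array 1, 2 or 3 (adjusted p = 0.207, 0.366 and 0.178), when arrays were centred on the mode of their log ratios (0.204), with only probes well above background on all arrays (0.178) and over the coding span alone (0.101). After loess spn7 passed at 0.55 (adjusted p = 0.00817), and mde10 was called on the Cy5 side at -0.42 (adjusted p = 0.0225). Of 11 genes listed for the removal of meiotic transcripts during growth, 9 were measured and 0 were called, with a median of 0.02. The list also holds mei3, which acts at the switch into meiosis and not on transcripts. The 9 measured genes ran from red5 at -0.11 and pla1 at -0.01 at the lower end to mtl1 at 0.18 and iss10 at 0.40 at the upper. The 80 measured genes named mug, for meiotically upregulated, had a median of 0.07. They had 2 calls on the Cy5 side and 4 on the Cy3 side, beside 7.06% and 1.5% of all windows. After loess they had 8 calls on the Cy5 side and 3 on the Cy3 side, near the shares of all windows, 9.45% and 2.43%.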

How the data were processed

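The deposited scanner files give the mean foreground intensity of each spot in Cy3 and Cy5, and the deposited value table gives the authors' log2 ratios, which matched loess-corrected ratios with the sign turned. The authors' software and genome build are not given in the sources used here. From the intensities, log2(Cy3/Cy5) was centred on each array's median, with no loess or quantile step. Spots flagged in the deposited files were left out, from 1.00% on array 4 to 16.3% on array 1. Exceptions were spots with saturated pixels whose deposited share of pixel variance common to both channels exceeded 0.3. A probe was well above background where, per the file headers, at least 50 percent of its pixels exceeded background by 2 SD in both channels. Duplicate arrays were averaged, and windows with at least 2 probes, probes, and upstream minus coding differences were tested against 0 with limma 3.58.1 in R 4.3.3 (two-sided, Benjamini-Hochberg over all features tested). The fitting script was tested on simulated data. With n = 2, p-values rest on a spread shared between features, and the number of arrays limits precision. In the main window and probe fits the sharing was complete (infinite prior degrees of freedom). The SD printed beside such a p-value did not enter it. For upstream minus coding the sharing was partial (prior degrees of freedom 12.06). The genes and lists were chosen with earlier results of these data known. Named were all members, the nearest neighbours, called list genes, and otherwise the 2 lowest and 2 highest of each list. The probes beyond the windows, nam1 and the ste11 leader were added after values were seen.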

Additional observations from a re-analysis of the deposited data

How the results depend on the processing

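The 2 probes upstream of byr2 inside its window kept direction and call under each of 11 alternatives run for them. The third lost its call without array 1, 2 or 3. Of the member windows, no other than ste11 after loess was called under any of the 13 alternatives run. Member probes called higher in Cy5 numbered 5 of 59 in the deposited table against 2 as reported. Over all 41171 probes such calls numbered 3337 there against 953. Member probes called higher in Cy3 numbered 3 in the deposited table and 3 after loess against 0. Over all probes these calls numbered 1864 and 1717 against 89. The byr2 difference between upstream and coding, whose upstream side is drawn from those same 2 probes in the window, passed under 9 of 12 alternatives. Without replicates 2 and 3 it read -1.74 and -2.12 and did not pass, nor did it with mode centring, which leaves differences as they were. With flagged spots kept it was unchanged at -1.89, while the limma adjusted p went from 0.0909 to 1.43e-04. The prior degrees of freedom, limma's weight for the spread shared between genes, were 12.06 as reported. They were infinite with flagged spots kept, in the deposited table, after loess, after normexp and with probes well above background. These passes therefore do not rest on the byr2 values alone. The mei4 window, as reported -0.08, was 0.029 in the deposited table and 0.031 after loess, and ranged from -0.19 to 0.030 with 1 array left out.

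Gene windows called higher in Cy5 fell from 302 to 118 with only probes well above background on all arrays, 166 with the coding span alone and 176 after normexp. They numbered 107 to 189 when 1 array was left out. Those higher in Cy3 went from 64 to 38 with flagged spots kept, 5 with probes well above background, 22 with the coding span, 104 after loess, 23 after normexp and 1 when centred on the mode, and to 4 to 25 when 1 array was left out. Mode centring lowered all log2 values, by 0.03 to 0.31 per array, and left the mfr1, rec8, mde2 and isp3 windows at 0.15, 0.10, 0.08 and 0.08.

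Probes called higher in Cy5 went from 953 to 3337 in the deposited table, 3166 after loess, 578 after normexp, 1559 with the immunoprecipitation as a random block and 274 to 781 with 1 array left out. Those higher in Cy3 went from 89 to 160 with flagged spots kept, 1864 in the deposited table, 1717 after loess, 27 with mode centring, 349 with the random block and 0 to 89 with 1 array left out. For upstream minus coding, 0 genes higher in Cy5 as reported became 27 with flagged spots kept, 15 with probes well above background, 200 in the deposited table, 193 after loess, 12 after normexp, 29 with the random block, 7 with 250 bp upstream and 0 to 20 with 1 array left out. The 2 higher in Cy3 became 130, 42, 47, 56, 39, 112 and 11 under these same settings, and 0 to 38 with 1 array left out. The causes were not tested.

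Values near 0 changed sign. The mfm2 window was -0.11 in the deposited table and -0.10 after loess. With 1 array left out, red5 ranged from -0.25 to 0.039 (0.039 without replicate 2, 0.006 without replicate 3), pla1 from -0.26 to 0.23, upstream minus coding of mfr1 from -0.49 to 0.25 and that of mde2 from -0.34 to 0.041. For pla1 the value was 0.034 with flagged spots kept, 0.095 with probes well above background, 0.022 with 250 bp flanks, 0.014 without replicate 1 and 0.23 without replicate 4. For mfr1 it was 0.13 without replicate 2 and 0.25 without replicate 3. For ste11 upstream minus coding was 0.14 after normexp. No paired analysis was possible because all 4 arrays form 1 group.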
